A study of Homo sapiens with 42 samples.

Results

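C/D box snoRNAs are short nucleolar RNAs that guide fibrillarin, a methyltransferase, to 2′-O-methylate ribosomal RNA, the spliceosomal RNA U6 and a few other RNAs. They take their name from a C box near the 5′ end and a D box near the 3′ end, and pair with the target through bases next to the D box or an internal copy of it. Most human ones lie in introns, are released from the spliced host intron by exonucleases, and are Pol II products. The C/D snoRNAs described here are those left after families with a shared host or an unusual role were set aside: the GAS5 and SNHG1 snoRNAs, U3, U8 and U13, the imprinted clusters on chromosomes 14 and 15, and 7 others (SNORD68, SNORD110, SNORD45B, SNORD70, SNORD103A, SNORD121B and SNORD54). They were chosen by name, snoRNA annotation and a row length of at most 500 bases, which took 201 of the 351 SNORD rows and of the 175946 rows of the count table. Because those 7 were set aside for how they varied among groups, counts of members that vary among groups are affected by that choice. A few members are copies of U3 and U13 whose names the rule did not list, and SNORD64, SNORD107 and SNORD109A, in the imprinted region of chromosome 15, are also members.

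The libraries were small RNA from human cells, sequenced with (plus PNK) or without (minus PNK) treatment by Antarctic phosphatase and polynucleotide kinase, which repair RNA ends that an adapter cannot otherwise join. THP-1, a monocytic leukaemia line, gave the groups A4, A7, E4 and G8, which the labels place in a study of knockout of POLR3G or POLR3GL, alternative subunits of RNA polymerase III. Which subunit each group lacks, and whether a group is a single clone, is not in the labels, and neither gene has a row. HEK293T, an embryonic kidney line, given 200 nM of a control antisense oligonucleotide, gave the group labelled mock, with 48 h stated for the treatment. Each of these 10 combinations of group and arm held 3 libraries, and the 12 samples labelled con or given a POLR3G oligonucleotide are not analysed here. Nothing says that replicates were separate cultures, so a p-value reflects no more than how far these libraries scatter.

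After overlapping rows were removed, libraries held, in units of 1e+06, 5.54 to 7.86 counts with PNK and 9.66 to 13.3 without. With PNK, 5 miRNAs typical of blood cells made up 2.39% to 4.59% of miRNA counts in A4, A7 and E4 and 1.43% to 2.46% in G8, against 1.59% to 2.12% in the libraries labelled mock, which thus lay below A4, A7 and E4 and overlapped G8. Without PNK they made up 2.62% to 5.13% in the THP-1 groups and 3.62% to 4.18% in mock. The 6 miRNAs typical of epithelial cells made up 0.00846% to 0.0324% in the THP-1 groups and at most 0.0144% in mock with PNK, and 0.0149% to 0.0341% in the THP-1 groups and 0.0202% to 0.0234% in mock without it. In neither arm did mock stand apart from all THP-1 groups by these markers, and its libraries are called by their label only. G8 libraries 1 and 2 without PNK stood apart with 2.16% and 2.08% miRNA, against 13.1% to 25.9% in the other 13 libraries of that arm.

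Sequences of the members on which the results turn are given here from GENCODE release 29 (GRCh38), 5′ to 3′ on the gene's strand. Capitals mark an exact TGATGA, the usual end of box C, within the first 20 bases, and the last CTGA, box D, within the last 20 bases. SNORD49A, a 28S rRNA guide at chr17:16440036-16440106 (+), was the most abundant member.
SNORD49A: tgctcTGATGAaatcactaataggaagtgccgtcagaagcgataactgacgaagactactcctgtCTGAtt
SNORD7 at chr17:35573657-35573753 (+) and SNORD8 at chr14:21397292-21397401 (−), in the host gene CHD8, guide U6.
SNORD7: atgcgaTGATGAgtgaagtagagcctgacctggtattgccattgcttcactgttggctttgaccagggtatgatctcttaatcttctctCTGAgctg
SNORD8: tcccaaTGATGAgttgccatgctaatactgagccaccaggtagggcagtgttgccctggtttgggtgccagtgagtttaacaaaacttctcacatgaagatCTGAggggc
SNORD1A at chr17:76561634-76561705 (+) and SNORD1B at chr17:76561109-76561192 (+) guide 28S rRNA from introns of SNHG16.
SNORD1A: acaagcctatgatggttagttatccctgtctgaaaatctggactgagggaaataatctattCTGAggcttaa
SNORD1B: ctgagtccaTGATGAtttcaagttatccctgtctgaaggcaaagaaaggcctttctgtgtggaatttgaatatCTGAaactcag
SNORD117 at chr6:31536374-31536449 (−) and SNORD84 at chr6:31541101-31541178 (−) lie in introns of DDX39B, an RNA helicase gene, and share 75.6% of their bases.
SNORD117: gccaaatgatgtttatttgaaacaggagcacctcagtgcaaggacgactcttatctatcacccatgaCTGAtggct
SNORD84: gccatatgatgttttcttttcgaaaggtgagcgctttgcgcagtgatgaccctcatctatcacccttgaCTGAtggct
SNORD36A at chr9:133350456-133350528 (+) and SNORD36B at chr9:133350095-133350168 (+) guide 18S rRNA from introns of RPL7A, a ribosomal protein gene.
SNORD36A: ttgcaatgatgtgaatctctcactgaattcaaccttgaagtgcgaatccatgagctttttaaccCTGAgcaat
SNORD36B: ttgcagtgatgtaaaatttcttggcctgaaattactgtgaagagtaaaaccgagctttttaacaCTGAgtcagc
SNORD15A at chr11:75400391-75400538 (+), a 28S guide in RPS3, and SNORD6 at chr11:93731502-93731574 (−), in TAF1D, were the members whose PNK difference depended on the THP-1 group.
SNORD15A: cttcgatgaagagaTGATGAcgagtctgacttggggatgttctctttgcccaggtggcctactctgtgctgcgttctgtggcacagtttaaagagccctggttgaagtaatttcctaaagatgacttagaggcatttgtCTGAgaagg
SNORD6: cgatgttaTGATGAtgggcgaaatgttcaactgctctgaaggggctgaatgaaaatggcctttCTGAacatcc

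Most members carried the boxes that define the class. Of 139 members with a GENCODE sequence, 133 (95.7%) held the D box word in that window, 85 (61.2%) the full C box word and 82 (59.0%) both. Among 146 sequences of H/ACA snoRNAs, the other class of nucleolar guide, 13 (8.9%) held the D word, 1 (0.7%) the C word and none both. The sequences were 64 to 237 bases long, with a median of 79. By the annotation, 182 members lay within an intron of a host gene, 2 lay in an exon and 17 were intergenic. The host was a ribosomal protein gene for 40, a translation factor gene or a pseudogene copy of one for 9, a non-coding gene for 23 and another coding gene for 112.

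Not all members were detected. No library had a count for 19 of the 201, 67 (these 19 included) had under 1000 counts over all 30 libraries, and 134 had 1000 or more. A library held a count for 146 to 158 members with PNK and for 152 to 160 without. The members together made up 9.34 ± 3.06% of counts with PNK (SD, n = 15, range 4.89% to 15.6%, median 9.55%) and 48.4 ± 6.60% without (n = 15, range 43.3% to 64.6%, median 46.4%). No library with PNK reached the lowest share without it, as the plot of shares by group shows. For differences between groups of these bulk samples, fewer cells with an RNA and less of it per cell cannot be told apart. H/ACA snoRNAs made up 0.165 ± 0.0666% of counts with PNK and 0.346 ± 0.257% without.

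**Figure D1:**
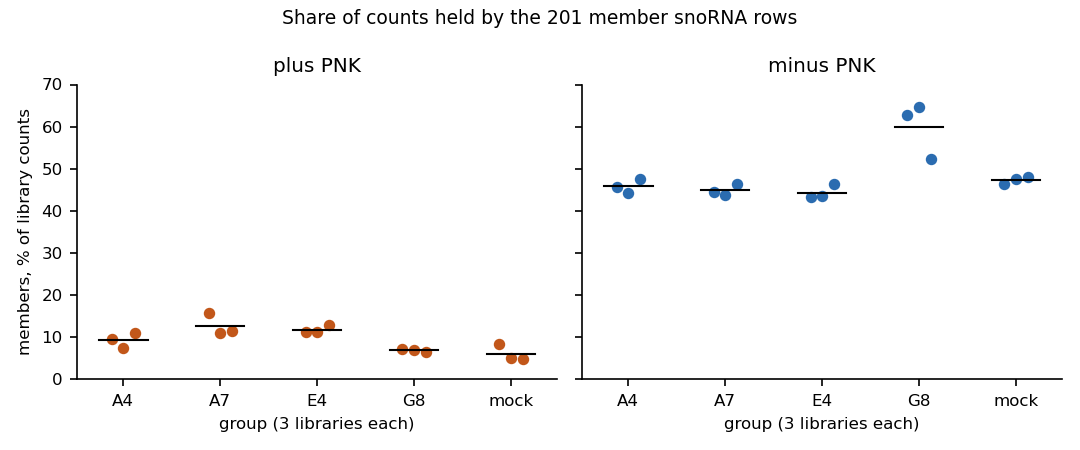
Percent of the counts of each library that fell on the 201 member rows, with PNK (left) and without (right), for the 3 libraries of each group; points are libraries and lines are group means. The libraries with PNK lie between 4.89% and 15.6% and those without between 43.3% and 64.6%, with G8 libraries 1 and 2 highest at 62.7% and 64.6%.

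A few snoRNAs held most of the reads, and largely the same ones in both arms. SNORD49A alone held 21.7 ± 5.23% of the member counts with PNK and 18.2 ± 4.15% without (SD, n = 15 each). Its share ran between 15.5% and 34.2% with PNK and between 11.3% and 26.4% without, so the arms overlapped. SNORD2, in the translation factor gene EIF4A2, held 6.18 ± 1.06% with PNK and 8.92 ± 0.962% without. SNORD63, a 28S guide in HSPA9, held 7.55% with PNK and 6.06% without, and SNORD101, with no known target, 6.83% and 6.37%. The 10 most abundant members of a library held 62.6 ± 5.31% of the member counts with PNK and 62.2 ± 4.40% without. Of the 10 with the highest mean share, 8 were in both arms' lists: the 4 above, SNORD59B, SNORD18A, SNORD55 and SNORD82. SNORD117 and SNORD59A completed the list with PNK, and SNORD46 and SNORD50A the list without. Dividing by row length kept 9 of the 10 in each arm.

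Across the whole library, nearly all members were lower with PNK. Relative to all features (TMM factors, edgeR's quasi-likelihood test over 30 libraries, adjusted p under 0.05), 138 of 144 members tested were lower with PNK and 4 higher, and SNORD23 and SNORD142 did not pass. Of all 11396 features tested, 93.9% were called, 79.3% higher and 14.7% lower, so the members went against the prevailing direction. Other small RNA classes did so too. Lower with PNK were 62 of 64 C/D snoRNAs set aside, 89 of 100 H/ACA snoRNAs, 20 of 20 scaRNAs (guides of the Cajal body) and 353 of 429 miRNAs. Their median log2 difference was −5.84, against 3.55 for all features. SNORD49A had 2706 to 15794 CPM (counts scaled to a library size of 1e+06, median 5189) with PNK and 167600 to 394500 CPM (median 297620) without. The arms did not overlap, and its log2 difference was −5.60 ± 0.21 (SE, adjusted p = 7.17e-38). SNORD1B had the lowest log2 difference, −7.52 ± 0.27, followed by SNORD100, an 18S guide in RPS12, at −7.05 ± 0.24. SNORD135, SNORD57 (an 18S guide in NOP56) and SNORD87 (a 28S guide in SNHG6) stood at −6.99, −6.87 and −6.70.

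The direction rests on the reference used. With library totals alone, 119 members were lower and 12 higher, with a median of −2.41 against 5.84 for all features. With factors from miRNA rows it turned round, with 93 members higher and 3 lower and a median of 0.60 against 8.63 for all features. Under each of these 3 scalings the members' median lay below that of all features. A change of scaling moves all features nearly alike, so the 3 are not separate support for this order.

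The 4 rows called higher were unusual ones. SNORD140 had 338 counts over the 15 libraries with PNK and 5 over the 15 without. The other 3 carry the name SNORD141A, and exons of EEF1A1 or of its pseudogene copies run over them: 6 of 7 EEF1A1 transcripts on chromosome 6, and the transcripts of EEF1A1P5 and EEF1A1P13. Since counts ignore strand and near-identical copies share reads, reads of EEF1A1, the gene of an abundant elongation factor, cannot be told apart from reads of the snoRNA in them.

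Scaled to the members' own total, PNK changed the snoRNAs unequally. With library size set to the summed member counts, so that a value is a share of the member counts, 52 of 144 were higher with PNK, 33 lower and 59 did not pass. On this scale 98.0% of all features were called, 94.0% higher and 3.92% lower, since the scale sets the total of the members equal in both arms, and the median of all features was 7.95. The members' own median was 0.02. With so many features called, adjustment dropped no member: the 85 called were all those with an unadjusted p under 0.05. These calls thus carry little control for the number of members tested. The direction was alike in all 5 groups for 50 of the 52 called higher and for 29 of the 33 called lower. No library overlapped between arms for 20 of the 52 and for 1 of the 33 (SNORD24), and the difference exceeded 2-fold for 33 and 3. Overlap was counted for members only, so no share over all features stands beside it. The 52 held 20.8% of the member counts with PNK and 12.7% without, the 33 held 25.2% and 36.2%, and those that did not pass held 53.9% and 51.1%. With TMM factors computed among the members, an alternative chosen after seeing the data, 45 were higher and 38 lower.

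Among the snoRNAs that guide U6, 3 of 5 were higher with PNK, 1 was lower and 1 did not pass. SNORD7 held 0.0258% to 0.113% of the member counts with PNK (median 0.0599%) and 0.00196% to 0.00370% without (median 0.00231%). All 15 libraries with PNK lay above all 15 without, a 23.2-fold difference (log2 4.54 ± 0.22, adjusted p = 4.75e-62). SNORD9 held 0.0239% to 0.108% with PNK (median 0.0427%) and 0.00106% to 0.00318% without (median 0.00225%), also with no overlap (log2 4.49 ± 0.22). SNORD8, its partner in CHD8, went the other way at log2 −0.71 ± 0.28 (adjusted p = 0.018), with 0.00168% to 0.0181% with PNK (median 0.00402%) and 0.00370% to 0.0289% without (median 0.00625%), and the arms overlapped. SNORD67, in CKAP5, was higher by log2 0.76 ± 0.22, and SNORD94, in PTCD3, had log2 0.26 ± 0.21 (adjusted p = 0.23). SNORD7 and SNORD9 had more raw counts with PNK, 4687 and 3996, than in the larger libraries without it, 1940 and 1751.

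SNORD97, which guides a tRNA methylation and lies in EIF4G2, was 15.6-fold higher with PNK (log2 3.96 ± 0.22). It held 0.0122% to 0.0841% of the member counts with PNK and 0.000590% to 0.00371% without. The 5.8S rRNA guides SNORD71 and SNORD96A did not pass, at log2 −0.17 ± 0.17 and −0.03 ± 0.17. Of 32 tested guides of 18S rRNA, 13 were higher, 6 lower and 13 did not pass (median 0.11). Of 47 guides of 28S rRNA, 17 were higher, 13 lower and 17 did not pass (median 0.01). Of 9 tested snoRNAs with no known target, 2 were higher, SNORD83B at log2 2.49 ± 0.38 and SNORD89 at 2.75 ± 0.24, 4 were lower and 3 did not pass. SNORD83A, SNORD86 and SNORD101 were those 3, at log2 −0.06, −0.39 and 0.09.

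The copies of U14, which is needed to process 18S rRNA in yeast, also divided. SNORD14A and SNORD14B, in RPS13, were higher with PNK by log2 1.06 ± 0.39 and 0.87 ± 0.20, and SNORD14E, in HSPA8, by 0.44 ± 0.20 (adjusted p = 0.034, a call lost under DESeq2 and with TMM factors among the members). SNORD14C and SNORD14D, in the same host as SNORD14E, had −0.01 ± 0.48 and −0.17 ± 0.60. Of the RPL13A snoRNAs, SNORD34 was 7.12-fold higher (log2 2.83 ± 0.21) and SNORD35A was higher by log2 1.99 ± 0.43, while SNORD33 and SNORD32A had 0.17 and 0.01. SNORD50A and SNORD50B, in SNHG5, a non-coding host gene, were both lower at log2 −0.38 (adjusted p = 0.048 and 0.031), a call lost for both without filtering on low counts.

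Grouped by host, 16 of 39 members tested in ribosomal protein genes were higher, 10 lower and 13 did not pass (median 0.09). In non-coding host genes 3 of 19 were higher, 11 lower and 5 did not pass (median −0.38). In translation factor genes and their pseudogene copies 5 of 9 were higher, 1 lower and 3 did not pass (median 0.71). The 5 take in the 3 SNORD141A rows, which lie over EEF1A1 and its pseudogene copies EEF1A1P5 and EEF1A1P13. The difference between host classes was not tested.

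Most of the longer rows were higher with PNK. Of 22 members over 100 bases, 17 were higher, 1 lower (SNORD8) and 4 did not pass, with a median log2 difference of 2.94. Of 122 members of 100 bases or less, 35 were higher, 32 lower and 55 did not pass, with a median of −0.01. On this scale 94.0% of all features were higher (median 7.95), so the contrast is one among members only. Across the 144 members, the log2 difference had a Spearman correlation of 0.38 with row length and −0.36 with mean abundance. It was −0.04 with GC content over the 118 with a sequence. These are descriptions across genes that share the same 30 libraries, and length and abundance were not separated. Median GC was 44.7% in those called higher, 43.8% in those lower and 43.5% in the others. The full C box word was in 53.7%, 72.4% and 68.8% of their sequences.

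**Figure D2:**
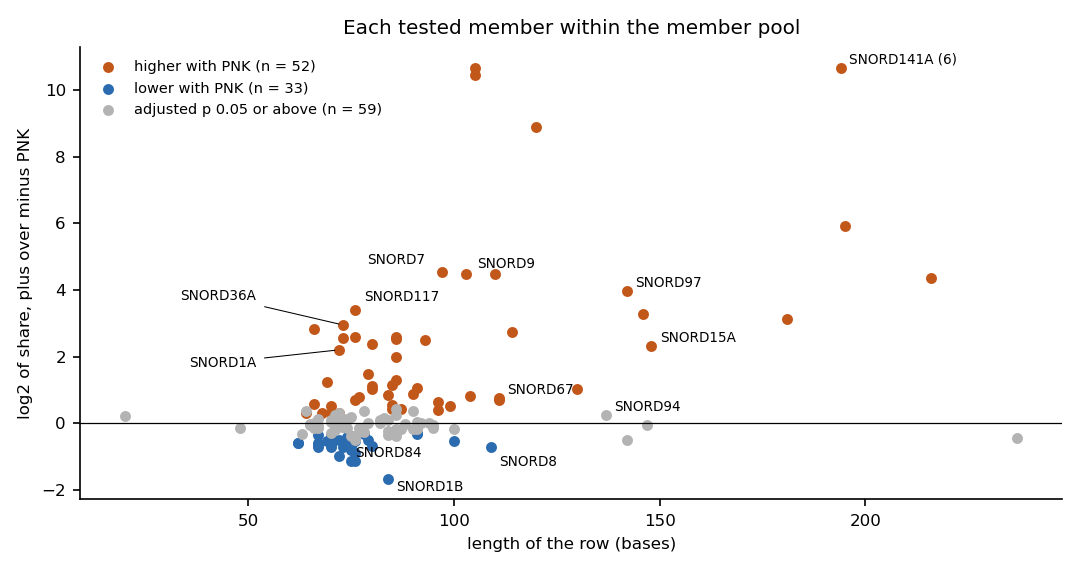
Each of the 144 tested members by row length (x axis, bases) and by the log2 of its share of member counts with PNK over that without (y axis), coloured by call. Of the 22 members over 100 bases 17 are called higher, while SNORD117, SNORD36A and SNORD1A are high among the shorter ones and SNORD1B is lowest at −1.66.

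Of the 10 most abundant members with PNK, SNORD117 had the largest log2 difference between arms. It held 2.08% to 7.32% of the member counts with PNK (median 2.73%) and 0.214% to 0.477% without (median 0.310%). The arms did not overlap, and it was 10.6-fold higher with PNK (log2 3.41 ± 0.16, adjusted p = 1.30e-61). SNORD36A held 0.453% to 1.56% with PNK (median 0.581%) and 0.0404% to 0.144% without (median 0.0928%), a 7.74-fold difference with no overlap. SNORD15A, at 148 bases, was 5.02-fold higher and SNORD38B 2.38-fold higher, each with no overlap. SNORD24, a 28S guide in RPL7A, was lower at log2 −0.80 ± 0.17, with 0.0580% to 0.129% with PNK and 0.137% to 0.179% without.

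SnoRNAs of the same host gene could go opposite ways. Of 36 hosts with 2 or more tested members (94 members), 7 held members called in both directions, among them CHD8, SNHG16, RPL7A, DDX39B, RPL3 and RPL4. These hosts were picked out after their values were seen. In DDX39B, SNORD117 rose as above, while SNORD84 held 0.119% to 0.530% with PNK (median 0.247%) and 0.220% to 0.524% without (median 0.316%). SNORD84 was called lower by a small margin, at log2 −0.33 ± 0.16 (adjusted p = 0.044, on a scale where adjustment changes little). In RPL7A, SNORD36A and SNORD36C were higher, at log2 2.95 and 0.59, SNORD36B had 0.13 (adjusted p = 0.49), and SNORD24 was lower.

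In SNHG16, SNORD1A and SNORD1C were higher with PNK, at log2 2.21 ± 0.20 and 0.80 ± 0.18, and SNORD1B lower at −1.66 ± 0.21 (adjusted p = 9.40e-12). All 3 are 28S guides. SNORD1A held 0.00878% to 0.0346% of the member counts with PNK and 0.00250% to 0.00592% without. SNORD1B held 0.0261% to 0.0693% with PNK and 0.0208% to 0.253% without. Its overlap came from G8 libraries 1 and 2 without PNK, at 0.0208% and 0.0237%. The other 13 libraries of that arm held 0.0935% to 0.253%, above every library with PNK. In RPL3, SNORD83B was higher and SNORD43 lower (−0.59), and in RPL4, SNORD18B and SNORD16 were higher (0.51 each) and SNORD18A lower (−0.64).

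**Figure D3:**
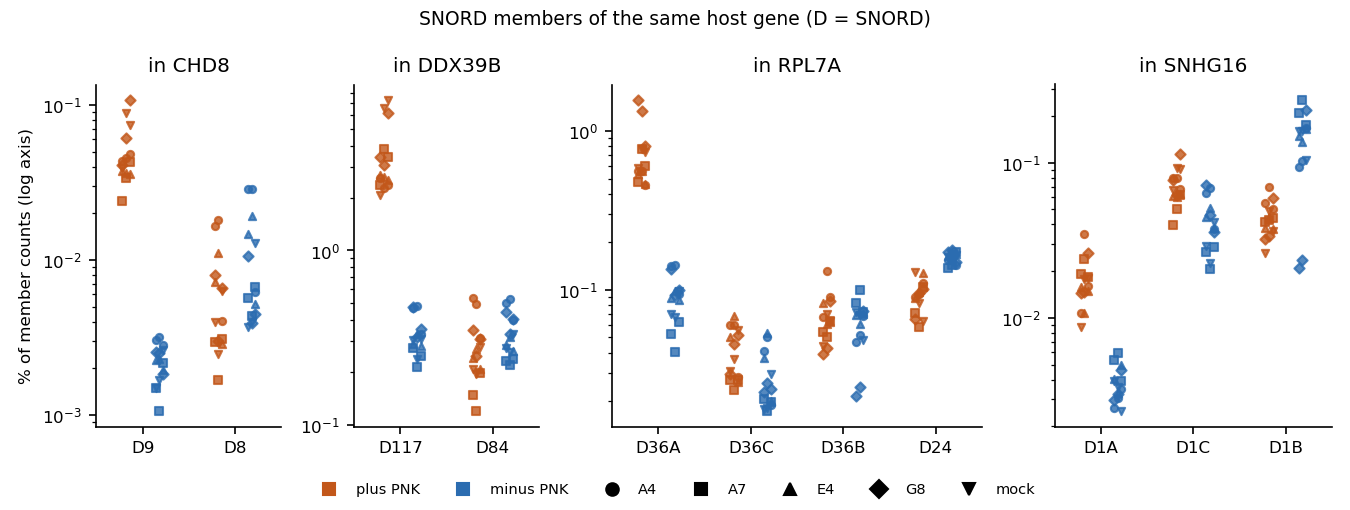
Share of member counts (log axis, percent) of SNORD members that lie in CHD8, DDX39B, RPL7A and SNHG16, with PNK (left of each pair) and without (right); each point is a library and its shape the group. SNORD9, SNORD117, SNORD36A and SNORD1A are separated between arms with PNK higher, while SNORD8, SNORD84 and SNORD1B are called lower with overlap.

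Other guide classes can be set beside these on the same scale, where they are related to the member counts. Of 100 H/ACA snoRNAs tested, 79 were higher with PNK and 2 lower (median 2.08), and of 20 scaRNAs, guides of the Cajal body, 15 were higher and 1 lower (median 1.97). The 64 C/D snoRNAs set aside and tested had 19 higher and 10 lower (median 0.22). Of all features, 94.0% were higher on this scale, with a median of 7.95, so these classes rose less often than features at large. The difference between these classes and the members was not tested.

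Within the arm without PNK, members called among the THP-1 groups were mostly highest in G8, and their number depended on single libraries. Equality of the 4 THP-1 groups was rejected for 94 of 139 members, against 31.0% of all features tested. G8 had the highest mean in 84 of the 94 and A4 in 10. A7 was lowest in 67, A4 in 14, E4 in 10 and G8 in 3. In 87 of the 94 the libraries of the highest and lowest groups did not overlap. Those groups were picked from the same values among members already called, so this adds no support, and overlap was not counted over all features. The median range of group means was 1.64 log2 units. G8 also had the highest share of member counts in the library, 62.7%, 64.6% and 52.2%, against 43.3% to 47.5% in A4, A7 and E4. Without G8 libraries 1 and 2 the count was 46 (32.2% of members tested, against 30.1% of all features). Leaving out any 1 of the 8 libraries numbered 1 or 2 gave 17 (G8 library 2) to 53 (E4 library 2) calls. Without the libraries numbered 3 the count was 135 of 140 (96.4%, against 77.8% of all features). Scaled to the member counts it was 28 (20.1%, against 34.3% of all features).

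Among called members at or above median abundance whose highest and lowest groups did not overlap, SNORD70B, in NOP58, had the widest range without PNK. A4 had 1493, 1397 and 1114 CPM, A7 had 418, 303 and 614 CPM, E4 had 736, 870 and 928 CPM, and G8 had 3200, 3453 and 1471 CPM (adjusted p = 0.0066). Libraries 1 and 2 of G8 were the highest 2, and A7 lay below the rest. SNORD50A averaged 25969 ± 11148 CPM in A4 libraries, 4805 ± 1408 CPM in A7, 14214 ± 4067 CPM in E4 and 20504 ± 8382 CPM in G8 libraries (SD, n = 3 each, adjusted p = 0.015). SNORD135, SNORD16, SNORD71, SNORD41, SNORD36A and SNORD104 completed the 8 widest ranges in that set.

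With PNK, 55 of 138 members were called across the 4 groups, against 22.0% of all features. The order of groups was another one: A4 was highest in 43, E4 in 8, A7 in 3 and G8 in 1, and G8 was lowest in 32 and A7 in 23. Libraries of the highest and lowest group, again picked from the same values, did not overlap in 54 of the 55, with no such count over all features. SNORD95, a 28S guide in RACK1, had 348, 333 and 173 CPM in A4 libraries, 147, 85.0 and 87.4 CPM in A7, 312, 374 and 122 CPM in E4 and 62.6, 54.4 and 79.6 CPM in G8 libraries (adjusted p = 0.0020, but 0.084 without G8 libraries 1 and 2). SNORD64, with no known target, was one of the few highest in A7, with 278, 158 and 214 CPM there against 64.0, 101 and 107 in G8. The 34 members called in both arms were 61.8% of the calls with PNK and 36.2% of those without it, and 7 of them had the same highest group in both.

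Scaled to the member counts, which removes the shift that the members share, 40 members were called with PNK and 28 without, and 13 in both (32.5% and 46.4%). With PNK the calls were 28.99% of members tested, against 28.61% of all features. Without PNK they were 20.1%, against 34.3% of all features. On this scale members were thus called about as often as all features with PNK and less often without it. The orders that follow describe the called members alone. Shares of a fixed total depend on each other, so a member with a larger share leaves less for the rest. With PNK the 10 most abundant members of a library held 70.8 ± 4.55% of the member counts in A7 and 57.9 ± 3.05% in A4 (SD, n = 3 each). The part of this in the orders was not tested. Of the 40, A4 was highest in 28 and A7 lowest in 37. Of the 28, A4 was highest in 16, A7 in 5, E4 in 4 and G8 in 3, and A7 was lowest in 12, G8 in 9 and A4 in 7, so the order was less uniform without PNK. Of the 13, 6 had the same highest and the same lowest group in both arms: SNORD89, SNORD71, SNORD104, SNORD50A, SNORD84 and SNORD41, each with A4 highest and A7 lowest. The arms are separate libraries of the same groups.

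SNORD50A, deleted in some cancers, held 4.72%, 4.81% and 1.83% of the member counts in A4 with PNK, 0.915%, 0.784% and 1.05% in A7, 2.08%, 3.14% and 1.53% in E4, 4.80%, 2.24% and 1.51% in G8 and 3.09%, 1.66% and 2.79% in mock (adjusted p = 0.0052 across the THP-1 groups). Without PNK it held 7.01%, 7.09% and 2.70% in A4, 1.59%, 0.964% and 1.47% in A7, 3.39%, 4.68% and 2.44% in E4, 3.30%, 1.65% and 2.61% in G8 and 2.23%, 2.09% and 5.10% in mock (adjusted p = 0.020). A7 lay below the other THP-1 groups in both arms, while A4 libraries 1 and 2 lay far above A4 library 3. SNORD71 averaged 0.399 ± 0.170% in A4 and 0.0965 ± 0.0163% in A7 with PNK, and 0.475 ± 0.190% and 0.122 ± 0.0271% without (adjusted p = 8.4e-04 and 0.026). SNORD84 did not split within A4 in this way, with 0.496%, 0.524% and 0.398% in A4 without PNK and 0.233%, 0.220% and 0.238% in A7 (adjusted p = 0.017).

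SNORD46, a 28S guide, showed the same order with PNK (adjusted p = 0.0011) and had adjusted p = 0.052 without. A like split was in the H/ACA share of the library, and not in A4 alone. With PNK it was 0.296%, 0.294% and 0.177% in libraries 1, 2 and 3 of A4 and 0.219%, 0.224% and 0.129% in those of E4, while A7 had 0.101% to 0.147%, G8 0.090% to 0.189% and mock 0.103% to 0.137%. Without PNK it was 0.881%, 0.809% and 0.218% in libraries 1, 2 and 3 of A4 and 0.447%, 0.566% and 0.122% in those of E4, while A7 had 0.110% to 0.239%, G8 0.447%, 0.162% and 0.164%, and mock 0.143%, 0.152% and 0.552%. Library 3 was thus the lowest of A4 and of E4 in both arms, as it was for SNORD50A, while G8 library 1 and mock library 3 stood above their groups without PNK for both measures. Its part in the differences between groups was not tested. SNORD49A had the opposite order, with 15.5%, 15.7% and 19.4% in A4 and 31.1%, 34.2% and 22.5% in A7 with PNK, and did not pass (adjusted p = 0.064 with PNK and 0.089 without).

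**Figure D4:**
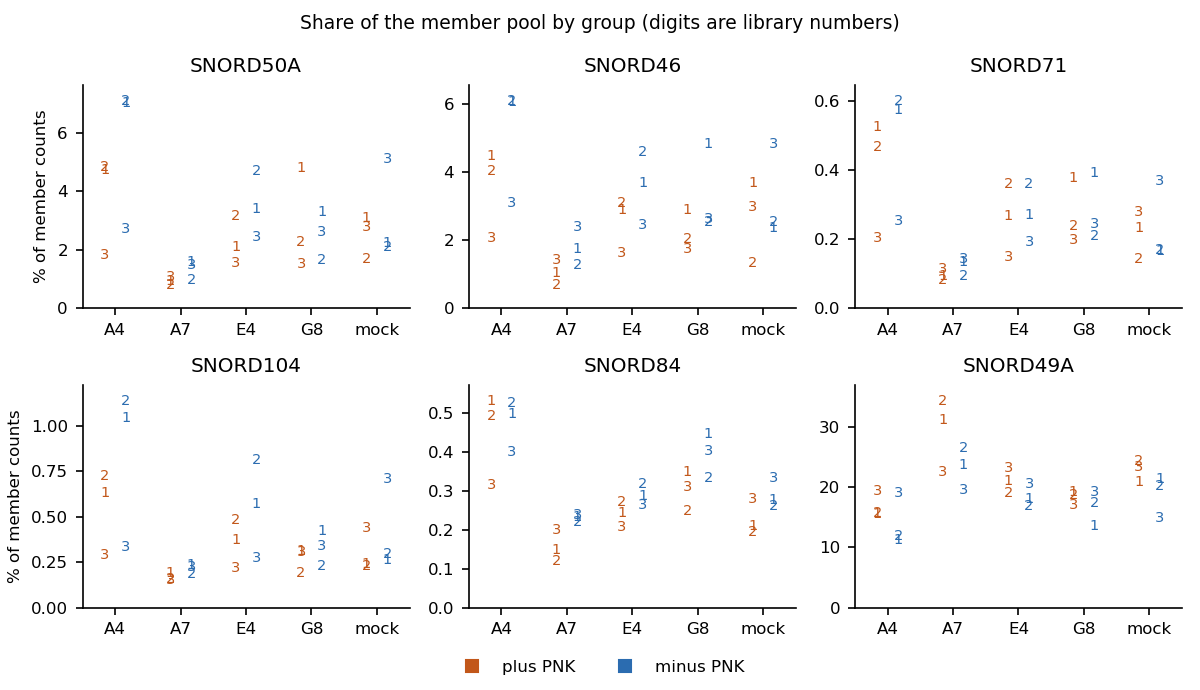
Share of member counts (percent) of 6 members by group, with PNK (left of each pair) and without (right); digits are library numbers, and mock stands last. SNORD50A, SNORD46, SNORD71 and SNORD104 are high in A4 libraries 1 and 2 and low in A7, SNORD84 is high in all A4 libraries, and SNORD49A is highest in A7.

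The members differed between the THP-1 groups and mock with PNK, and not by edgeR's test without it. With PNK, 75 of 138 members were higher in the mean of the THP-1 groups and 0 lower, while 5.72% of all features were called, 3.38% higher and 2.34% lower. The median log2 difference of the members was 1.10, against −0.01 for all features. No overlap between the THP-1 and the mock libraries was seen for 28 members, a count not made over all features. The members' share of the library was likewise 9.34 ± 1.77% in A4, 12.7 ± 2.60% in A7, 11.8 ± 1.01% in E4, 6.88 ± 0.337% in G8 and 6.05 ± 2.01% in mock (SD, n = 3 each). Scaled to the member counts, 2 were higher and 11 lower (9.42% of members tested, against 74.0% of all features), so the direction of the calls turned. The median was then 0.04 for members and −1.15 for all features. In this arm mock also had less of the blood cell miRNAs than A4, A7 and E4, as given above, and the part of this in the result was not tested. Without mock library 2 the count was 32, and without mock library 3 it was 30.

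SNORD64 had the largest difference with PNK among those named, at log2 1.90 ± 0.27 (adjusted p = 1.75e-04). A4 had 115, 88.7 and 142 CPM, A7 had 294, 167 and 225 CPM, E4 had 214, 179 and 225 CPM, G8 had 67.9, 106 and 111 CPM and mock had 58.2, 34.1 and 29.4 CPM, so each THP-1 library lay above each mock library. CPM here is scaled over the THP-1 and mock libraries together, and so differs from that given above for the THP-1 groups alone. SNORD96A averaged 307 ± 39.3 CPM in A4 libraries, 190 ± 54.5 CPM in A7, 316 ± 23.8 CPM in E4, 230 ± 38.3 CPM in G8 and 84.6 ± 3.49 CPM in mock (log2 1.59 ± 0.24). SNORD101, SNORD37 (a 28S guide in EEF2) and SNORD53B (in WDR43) followed at log2 1.50, 1.48 and 1.48. SNORD49A had log2 0.98 ± 0.38 and did not pass (adjusted p = 0.15).

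Without PNK, 0 of 138 members were called by edgeR, against 5.74% of all features, 0.704% higher and 5.04% lower. Its unadjusted p was under 0.05 for 5 members (SNORD53, SNORD64, SNORD53B, SNORD159 and SNORD88B), against 299 of all 1847 features. DESeq2 called 3 members (2.17% of those tested, against 9.04% of all features). Both counts lay below the rate over all features. The members' median was 0.26, against −0.06 for all features. Leaving out the libraries numbered 3 gave 76 calls (54.3% of members tested, against 46.5% of all features). Leaving out G8 library 3 alone gave 15. By the labels this comparison is one of cell line, oligonucleotide and genotype at once, and these cannot be told apart.

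The PNK difference depended on the THP-1 group for 2 of 144 members, against 0.594% of all features. The unadjusted p was under 0.05 for 30 members, against 1200 of all 10783 features. The calls numbered 37 without G8 library 3 (25.5% of members tested, against 6.26% of all features). They numbered 0 without any 1 of the E4 libraries or without G8 library 1 or 2. Without A4 library 1 or any 1 of the A7 libraries there was 1. For SNORD6 the log2 difference of plus over minus PNK was −5.14 for A4, −5.32 for A7, −4.73 for E4 and −7.22 for G8 (adjusted p = 0.028). It held 0.651%, 0.825% and 0.715% of the member counts in G8 with PNK, within the range of the other THP-1 groups (0.625% to 0.891%), and 1.37%, 1.99% and 0.538% in G8 without PNK, where the other THP-1 groups held 0.509% to 0.635%. G8 libraries 1 and 2 without PNK alone lay outside, and the call was lost without them (adjusted p = 0.49) and when scaled to the member counts (0.16).

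For SNORD15A the log2 differences were −3.89 for A4, −4.24 for A7, −3.99 for E4 and −1.90 for G8 (adjusted p = 0.041). It held 0.283%, 0.254% and 0.165% of the member counts in G8 with PNK, against 0.0603% to 0.129% in A4, A7 and E4. Without PNK it held 0.0118%, 0.00703% and 0.0168% in G8, against 0.0262% to 0.0360% in the others. All 3 G8 libraries were thus above the other THP-1 groups in one arm and below them in the other, and the adjusted p was 6.78e-05 when scaled to the member counts. It was 0.061 with library totals, 0.60 with miRNA factors and 0.95 without G8 libraries 1 and 2. In mock, SNORD15A held 0.180%, 0.212% and 0.240% with PNK and 0.0286%, 0.0212% and 0.0246% without.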

How the data were processed

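Small RNA was prepared with the mirVana PARIS kit, per the labels, which describe this for THP-1, then treated or not with phosphatase and kinase, and made into libraries with the NEBNext Small RNA kit. The authors deposited raw read counts per annotated row, with no normalization. Per the submitters' processing notes, the tools were Trim Galore, FastQC, Bowtie2 2.3.5.1, SAMtools 1.9, deepTools 3.2.1 and bedtools 2.28.0, with GRCh38. The handling of multiple alignments, strand and overlapping rows is not stated there. In the values, counts ignore strand and a read counts in every row it overlaps, so the tests used 85717 rows without overlap, chosen with structured small RNAs ahead of longer ones. Near-identical copies share reads, and a count does not show where in a row reads lie. Host genes and sequences come from GENCODE release 29.

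The test was edgeR's quasi-likelihood F test (version 4.0.16, R 4.3.3; TMM factors, filterByExpr, Benjamini-Hochberg over all features tested, threshold 0.05), with 1 mean per group and arm. CPM values use the TMM factors of their own fit. Within-member tests set library size to the summed member counts. DESeq2 1.42.0, other factors, filters and left-out libraries were alternatives. On simulated counts of all features, each time scaled by TMM factors, the 30-library test recovered 100% of 2-fold changes. It recovered 96% at the larger scatter of the within-member fit, but scaling to the member counts was not simulated. The test across groups recovered 45% with PNK and 17% without it, the test against mock 73% and 45%, and the interaction 1%. Unchanged rows made up 9.24% of simulated calls in the test across groups without PNK, above the threshold, and at most 4.95% in the others. Members named are the 10 most abundant per arm, the widest called, non-overlapping differences at or above median abundance, and fixed lists by role; others were named after their values were seen. Members, lists and tests were chosen with earlier results of these data known. Counts of members passing low-count filters are given as tested, and 57 of the 201 did not pass that of the 30-library fit. A further host gene and the sequence of a further member are not reported here.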

Additional observations from a re-analysis of the deposited data

Results flagged for a closer look

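Among the members, 2 had a difference between plus and minus PNK that was not equal in the 4 THP-1 groups by a test of the interaction in edgeR. SNORD6, a snoRNA of TAF1D, had adjusted p = 0.0283 (a larger fall with PNK in G8 than in A4, A7 and E4), and SNORD15A, a 28S guide in RPS3, had adjusted p = 0.041 (a smaller fall in G8). G8 libraries 1 and 2 without PNK, the pair with 2.16% and 2.08% miRNA, moved with both results: without them the adjusted p was 0.494 for SNORD6 and 0.95 for SNORD15A. The part of the miRNA share in either result was not tested.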

How the results depend on the processing

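For plus against minus PNK, factors from miRNA rows gave 96 calls (66.7% of members tested, against 98.1% of all features). That setting turned the direction (93 higher, 3 lower), and the other settings gave 131 to 154 calls. Across groups without PNK, 94 calls became 43 with library totals, 28 scaled to the member counts and 46 without G8 libraries 1 and 2. Of the members tested these were 30.9%, 20.1% and 32.2%, against 28.8%, 34.3% and 30.1% of all features. Against mock without PNK, 0 calls became 3 with DESeq2 (2.17% of members tested, against 9.04% of all features). They became 3 without G8 libraries 1 and 2 (2.11% against 8.52%) and 76 without the libraries numbered 3 (54.3% against 46.5%). Against mock with PNK, 75 calls became 48 with miRNA factors (34.8% of members tested, against 39.4% of all features). They became 38 without the libraries numbered 3 (27.3% against 3.46%) and 13, mostly lower, scaled to the member counts (9.42% against 74.0%). For the interaction, 2 calls became 5 with DESeq2's factors (3.47% of members tested, against 0.668% of all features). They became 75 with miRNA factors (52.1% against 3.58%), 12 without a filter (6.63% against 0.414%) and 27 with DESeq2 (18.75% against 2.30%). Over every deposited row there were 4 (2.76% against 0.97%). Without G8 libraries 1 and 2 there were 5 (3.36% against 1.82%), and without the libraries numbered 3 there were 42 (29.2% against 5.46%). The cause of these shifts was not tested.

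Leaving out 1 library gave 142 to 144 calls for plus against minus PNK, 76 to 92 within the members, 37 to 61 across groups with PNK and 17 to 119 without it, 30 to 100 against mock with PNK and 0 to 15 without it, and 0 to 37 for the interaction. Shares over all features are not given beside these ranges. Where leaving out 1 library left 2 in a group, the spread was pooled over groups.

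Replicate numbers did not pair the libraries in every group. Same-numbered libraries of different groups correlated at −0.0918 to 0.167 with PNK and −0.725 to 0.685 without it. Without PNK all 9 same-numbered pairs among A4, E4 and G8 were positive (0.0903 to 0.685). So were their 6 pairs of a library 1 with a library 2 (0.0636 to 0.436). Pairs of a library 3 with another number were negative (−0.566 to −0.111). Values were first centred on the mean of each group's 3 libraries, so the signs of pairs with a library 3 follow from the other pairs. The values show library 3 apart from libraries 1 and 2 in A4, E4 and G8 alike. Same-numbered pairs of A7 with these groups ran between −0.311 and 0.144, and A4 library 1 correlated better with E4 library 2 than with E4 library 1. With the replicate number as a block, the 94 calls across groups without PNK became 50, the 2 of the interaction became 20, and SNORD14C within the members had log2 0.36 in place of −0.01; the other 5 counts stayed within 1.5 times. Depth limits the rare members: 67 had under 1000 counts in all.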
